A study of Homo sapiens with 26 samples.

Results

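Matrix metalloproteinases (MMPs) and their tissue inhibitors (TIMPs) were examined in 9 lines of MDA-MB-231Luc, made from MDA-MB-231, an established human line of triple-negative breast cancer. The 9 genes MMP1, MMP2, MMP3, MMP9, MMP13, MMP14, TIMP1, TIMP2 and TIMP3 were taken by symbol from the 33562 genes of the deposited expression table, and all 9 were found. Of these, 6 reached 1 RPKM (reads scaled to transcript length and to the mapped reads of the library) in at least 2 libraries and were tested among 12589 genes. MMP2, MMP9 and MMP13 did not reach it and are described by their levels.

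The study asked how directing the mitotic kinase AURKA to the cytoplasm, the nucleus or both bears on these cells and on their spread in xenografts, and the xenografts are not analysed here. All lines carried the vector pLUTZ mRFP and grew continuously in doxycycline, which switches on the rtTA-responsive promoter that drives the AURKA cDNA. The control lines Empty, NES-Empty and NLS-Empty had no AURKA cDNA and the guide sgCon, at passages 19 to 20. WT-AURKA (clones c1 and c2) and NES-AURKA (clones c1 and c2, with a nuclear export signal) were labelled MUT2 and sgAURKA2, at passages 32 to 35. NLS-AURKA (clones c2 and c3, with a nuclear localization signal) was labelled MUT1 and sgAURKA1, at passages 32 to 35. WT-AURKA c2 had 2 libraries and each other line had 3. Guide, passage and clone therefore cannot be told apart from the AURKA cDNA, nor sgAURKA1 and MUT1 from the nuclear signal. Each AURKA line is 1 clone.

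MMPs are zinc-dependent endopeptidases that cut collagens, other matrix proteins and cell-surface proteins, and most are made as inactive proenzymes that another protease must open. Collagenases such as MMP1 and MMP13 cleave fibrillar collagen, the stromelysin MMP3 cleaves many matrix proteins and activates other proenzymes, and the gelatinases MMP2 and MMP9 degrade denatured and basement membrane collagen. MMP14 sits in the plasma membrane, where it cleaves pericellular collagen and activates the proenzyme of MMP2 with TIMP2 as a bridge. TIMPs bind the active site of MMPs. RNA levels of this kind say nothing of secretion, activation or enzyme activity.

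Promoters are printed for MMP14, TIMP1 and TIMP3, members whose levels differed between groups of lines, because the sequence table used here (RefSeq, build GRCh38.p14) holds these 3 of the 9 genes. Each runs from 250 bases before to 50 bases after the annotated start, 5′ to 3′ on the plus strand. The MMP14 window is chr14:22836335-22836634, that of TIMP1 is chrX:47582186-47582485, and that of TIMP3 is chr22:32801455-32801754. Capitals mark GC boxes (GGGCGG on either strand, so CCGCCC where it lies on the minus strand) and 1 AP-1-like element (TGAGTAA).
MMP14: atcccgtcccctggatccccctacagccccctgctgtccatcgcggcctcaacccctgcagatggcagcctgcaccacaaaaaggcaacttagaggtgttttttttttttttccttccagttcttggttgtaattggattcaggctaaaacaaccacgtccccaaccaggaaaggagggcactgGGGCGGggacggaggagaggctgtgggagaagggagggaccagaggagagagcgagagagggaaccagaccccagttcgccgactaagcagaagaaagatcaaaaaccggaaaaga
TIMP1: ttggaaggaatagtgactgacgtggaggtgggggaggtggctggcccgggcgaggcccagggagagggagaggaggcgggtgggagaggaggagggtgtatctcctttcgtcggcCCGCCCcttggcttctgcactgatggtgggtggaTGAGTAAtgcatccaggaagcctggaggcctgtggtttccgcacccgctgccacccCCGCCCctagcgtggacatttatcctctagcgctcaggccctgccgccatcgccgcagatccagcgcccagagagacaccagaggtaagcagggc
TIMP3: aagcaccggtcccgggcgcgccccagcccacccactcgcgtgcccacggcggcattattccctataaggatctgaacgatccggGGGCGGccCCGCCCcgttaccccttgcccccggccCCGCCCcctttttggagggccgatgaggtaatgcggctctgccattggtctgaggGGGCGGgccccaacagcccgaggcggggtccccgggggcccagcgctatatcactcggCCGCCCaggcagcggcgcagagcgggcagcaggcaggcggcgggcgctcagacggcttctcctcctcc
The GC box occurred 1 time in MMP14, with its first base at position -66 from the start, 2 times in TIMP1 and 5 times in TIMP3, and 45% of the 35116 promoters in the table hold at least 1. The AP-1 element TGANTCA, searched on both strands, was in none of the 3 windows and in 7.71% of all promoters. TGAGTAA lay at position -101 of TIMP1 and was in 2.57% of all promoters, and TATAAA was in none of the 3 and in 11.5% of all. These matches describe letters in the windows and no binding was measured.

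The 8 libraries lettered A to H in their titles (1 of each line but WT-AURKA c2) differed from the other 18, lettered I to Z. The nuclear RNA MALAT1 ranged from 175 to 561 RPKM in A to H and from 6.1 to 33.5 RPKM in I to Z, and 22229 to 24418 against 19157 to 20759 genes were above 0. Depth, estimated from the value of 1 read, was 12300000 to 20400000 reads or fragments per library, and no 2 libraries were identical. AURKA averaged 49.9 to 61.6 RPKM in the control lines, 13.5 in WT-AURKA c2 and 37.0 in c1 (libraries at 84.1, 14.1 and 12.8, the first of set A to H), 24.6 and 31.9 in the NES-AURKA clones and 51.9 and 66.5 in the NLS-AURKA clones, in a table that sums gene and cDNA. The 6 markers of mesenchymal MDA-MB-231 cells summed to 658 to 2096 RPKM and none was under 1 RPKM in all libraries. Markers of other cells summed to at most 1.78 RPKM for fibroblasts and 4.58 for endothelium, to 27.8 to 71.5 for leukocytes, of which CD68 held 27.2 to 70.7, and to 34.3 to 108 for luminal epithelium. No label states that the libraries of a line stem from different cultures, so p-values of fits to the 26 libraries measure a spread that may be technical. Those of groups of lines, with 1 mean per line, measure the spread between lines. In bulk RNA, fewer cells of a type and less RNA per cell cannot be told apart.

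Per length, the most abundant members were MMP1, TIMP1, TIMP2, TIMP3 and MMP14, with line means between 21.7 and 841 RPKM. MMP1 was far higher in the NLS-AURKA clones than in any other line, MMP14 was higher in all 6 AURKA clones than in the controls, TIMP1 was highest in the NES-AURKA clones, and TIMP3 was highest in the NLS-AURKA clones. MMP3 was low, at 0.0325 to 3.38 RPKM with a median of 0.553, and MMP2, MMP9 and MMP13 stayed under 1 RPKM in every library. Over the 9 lines, levels differed for MMP1 (limma F test, adjusted p = 3.46e-06), MMP14 (9.46e-07), TIMP1 (1.99e-05) and TIMP3 (0.00106), whereas MMP3 (0.809) and TIMP2 (1) did not pass. The F test was fitted to the 26 libraries, so it sets lines against the spread between libraries of a line. The share of all genes that pass it was not counted, so these passes are not set apart from other genes.

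**Figure D1:**
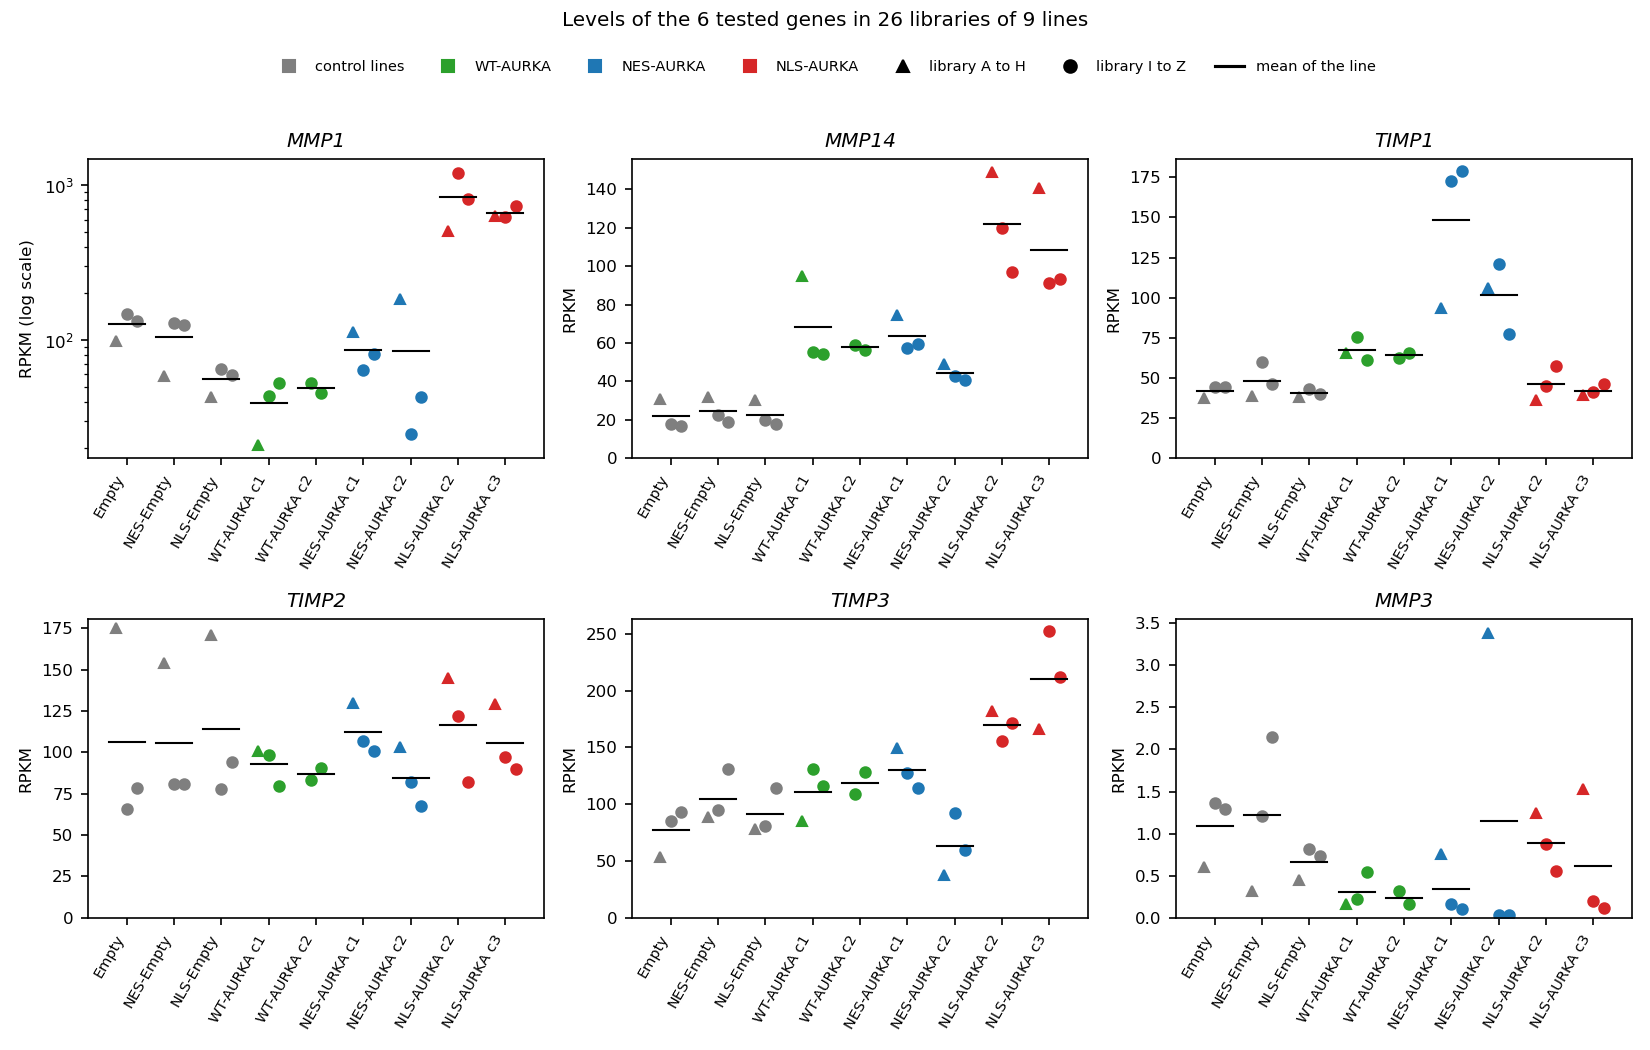
RPKM of the 6 tested genes in each of 26 libraries (points; triangles for libraries A to H, circles for I to Z) of the 9 lines on the horizontal axis, with the mean of each line as a bar; the MMP1 axis is logarithmic and the others start at 0. The NLS-AURKA libraries lie between 507 and 1198 RPKM for MMP1, above every other library, and the 17 AURKA libraries lie above the 9 control libraries for MMP14.

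MMP1, the interstitial collagenase, was at 507, 1198 and 817 RPKM in the libraries of NLS-AURKA c2 and at 629, 622 and 738 RPKM in those of c3. The control libraries were at 98.4, 148 and 132 RPKM in Empty, 58.9, 128 and 125 in NES-Empty, and 43.0, 64.9 and 59.0 in NLS-Empty. The NLS-AURKA libraries did not overlap any other, since the highest of the other 20 was at 185 RPKM. For this and each later gap between groups of libraries, the share of all genes with such a gap was not counted. WT-AURKA c1 was at 21.1, 43.6 and 52.9 RPKM, and c2 at 52.4 and 45.4 RPKM. NES-AURKA c1 was at 112, 64.2 and 81.7 RPKM, and c2 at 185, 24.8 and 43.0 RPKM. The WT-AURKA libraries lay in and below the lower part of the control range, and the 3 libraries of NES-AURKA c2 spanned more than the range of all controls, with library A the highest. Means of lines were 752 ± 126 RPKM in NLS-AURKA (SD, n = 2 clones), 95.2 ± 36.0 in controls (n = 3 lines), 85.2 ± 1.19 in NES-AURKA (n = 2) and 44.1 ± 6.83 in WT-AURKA (n = 2). In the order of line means, the NLS-AURKA clones came first and shared no values with the next line, Empty, while each further neighbour overlapped the one before.

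MMP13, the other collagenase listed, was between 0 and 0.72 RPKM and above 0 in 24 of 26 libraries, where 1 read is worth about 0.018 to 0.0299 RPKM. Its 2 highest libraries were those of set A to H from NES-Empty (0.72 RPKM) and NES-AURKA c1 (0.681 RPKM). The other libraries of these lines were at 0.0289 to 0.178 RPKM. At this depth no order of lines was read from MMP13.

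MMP3, the stromelysin encoded beside MMP1, was at 0.6, 1.37 and 1.29 RPKM in Empty, 0.322, 1.21 and 2.15 in NES-Empty, and 0.451, 0.818 and 0.738 in NLS-Empty. It was at 0.161 to 0.546 RPKM in the 5 WT-AURKA libraries. In NES-AURKA it was at 0.754, 0.16 and 0.103 RPKM in c1 and at 3.38, 0.0349 and 0.0325 RPKM in c2. The highest value of all 26 was thus library A of NES-AURKA c2, whose other 2 libraries were the lowest of all. A single MMP3 read is worth about 0.0243 to 0.0403 RPKM, so 0.0349 and 0.0325 lie within the value of 1 read. MMP3 reached 1 RPKM in 7 of 26 libraries, so counting error limits its fold changes and calls below. In NLS-AURKA c2 it was at 1.25, 0.876 and 0.559 RPKM and in c3 at 1.53, 0.198 and 0.122 RPKM.

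Both gelatinases were under 1 RPKM in all libraries. MMP2 was listed at 0 in 22 of 26 libraries and reached 0.144 RPKM in library A of NES-AURKA c2, where 1 read is worth about 0.0131 to 0.0217 RPKM. MMP9 was above 0 in all 6 NLS-AURKA libraries, at 0.572, 0.106 and 0.07 RPKM in c2 and 0.137, 0.174 and 0.0699 RPKM in c3. It was above 0 in 7 of the other 20 libraries, at 0.0606 RPKM or less. The lowest NLS-AURKA values, 0.0699 and 0.07 RPKM, lie above this by less than the value of 1 read. A single MMP9 read is worth about 0.021 to 0.0348 RPKM. The values outside NLS-AURKA and the lowest within it thus rest on a few reads at most, and no fold change or separation of lines is read from them.

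**Figure D2:**
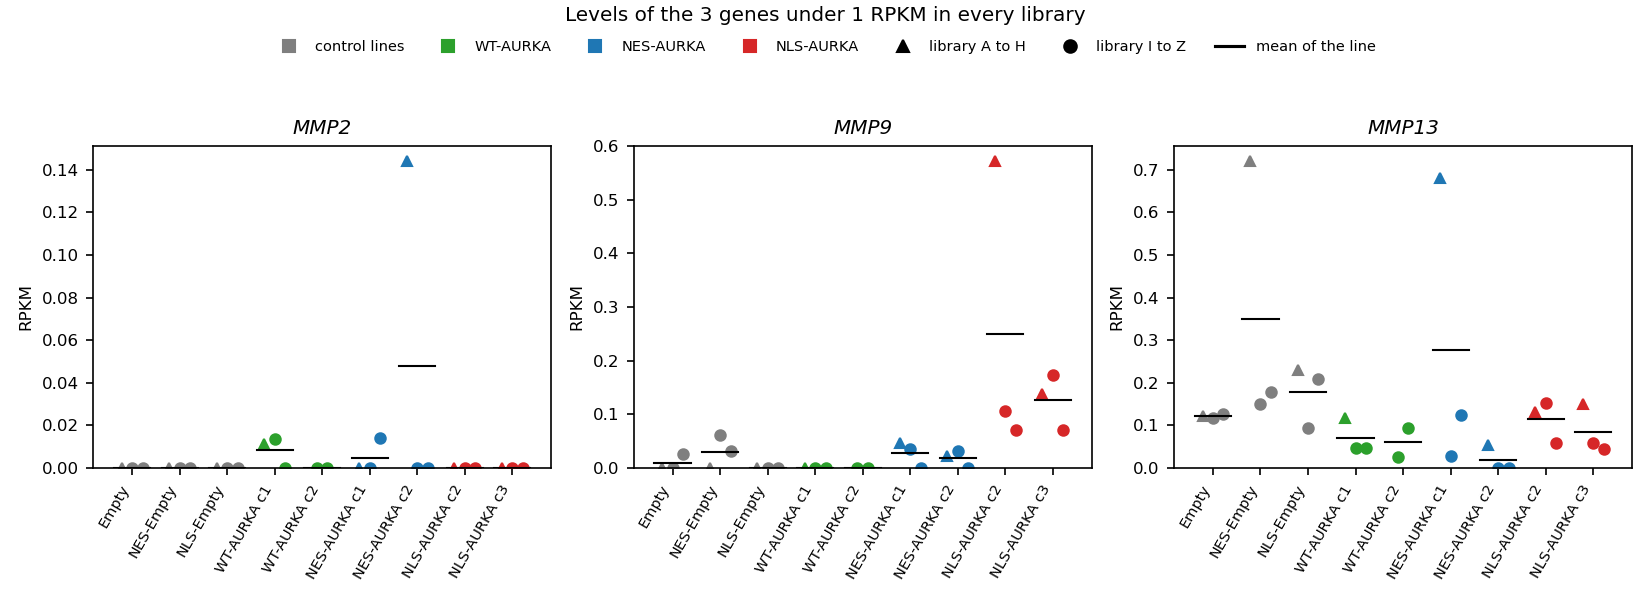
RPKM of MMP2, MMP9 and MMP13 in each of 26 libraries (points; triangles for libraries A to H, circles for I to Z), by line, with the mean of each line as a bar. All values are under 1 RPKM; MMP9 is above 0 in all 6 NLS-AURKA libraries, the highest at 0.572 RPKM.

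MMP14, the membrane-type collagenase, was at 30.9, 17.6 and 16.6 RPKM in Empty, 31.6, 22.5 and 18.8 in NES-Empty, and 30.1, 19.9 and 18.0 in NLS-Empty. WT-AURKA c1 was at 94.9, 55.4 and 54.2 RPKM and c2 at 59.0 and 56.4, NES-AURKA c1 at 74.8, 57.4 and 59.3, and NES-AURKA c2 at 49.0, 42.6 and 40.7. NLS-AURKA c2 was at 149, 120 and 97.2 RPKM and c3 at 141, 91.1 and 93.3. The 17 AURKA libraries, at 40.7 to 149 RPKM, did not overlap the 9 control libraries, at 16.6 to 31.6 RPKM. How many of all genes separate in this way was not counted. In every line with both sets the library of set A to H was the highest. Means of lines were 22.9 ± 1.32 RPKM in controls (SD, n = 3), 62.9 ± 7.38 in WT-AURKA (n = 2), 54.0 ± 13.9 in NES-AURKA (n = 2) and 115 ± 9.65 in NLS-AURKA (n = 2).

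TIMP1, a secreted inhibitor of most soluble MMPs, was at 93.3, 173 and 179 RPKM in NES-AURKA c1 and at 106, 121 and 77.4 RPKM in c2. WT-AURKA c1 was at 65.3, 75.5 and 61.1 RPKM and c2 at 62.7 and 65.5 RPKM. The control libraries were at 37.4 to 59.6 RPKM, and those of NLS-AURKA lay in or just below this range, where c2 was at 36.0, 44.8 and 57.2 and c3 at 39.1, 40.9 and 46.4 RPKM. NES-AURKA libraries lay above all WT-AURKA libraries, which lay above all control and NLS-AURKA libraries. Means of lines were 125 ± 33.2 RPKM in NES-AURKA (SD, n = 2), 65.7 ± 2.23 in WT-AURKA (n = 2), 43.6 ± 4.17 in controls (n = 3) and 44.1 ± 2.73 in NLS-AURKA (n = 2).

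TIMP2, the inhibitor that also takes part in MMP2 activation, had line means of 84.3 to 116 RPKM. In the control lines the libraries of set A to H were at 175, 154 and 171 RPKM and those of set I to Z at 65.7 to 93.9 RPKM, a wider gap than between any 2 line means. The ranges of neighbouring lines overlapped throughout.

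TIMP3, which binds to the extracellular matrix, was at 182, 156 and 171 RPKM in NLS-AURKA c2 and at 166, 252 and 212 RPKM in c3. NES-AURKA c1 was at 149, 127 and 114 RPKM and c2 at 37.8, 92.0 and 59.5 RPKM. The NLS-AURKA libraries, from 156 RPKM up, did not overlap the other 20, of which the highest was at 149 RPKM, again without a count over all genes. Line means were 77.6 to 105 RPKM in controls and 111 and 118 RPKM in WT-AURKA. The NES-AURKA clones stood apart from each other, with 130.1 ± 17.5 and 63.1 ± 27.3 RPKM (SD, n = 3 libraries each).

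The first comparison set all AURKA lines against the control lines, with 1 value per line in limma on log2(RPKM + 1). MMP14 was higher in the AURKA lines, by a log2 fold change of 1.65 (SE 0.28, adjusted p = 0.00396, n = 6 and 3 lines), the only member called of 6 tested. Of all 12589 genes 19.2% were called in this comparison, 8.85% higher and 10.4% lower. MMP1 (0.56, SE 0.99, adjusted p = 0.727) and TIMP1 (0.68, SE 0.34, adjusted p = 0.187) did not pass. For MMP1 the NLS-AURKA clones stood apart from the other constructs, and for TIMP1 the 3 constructs stood at different levels. MMP3 (-0.39, adjusted p = 0.0892), TIMP2 (-0.05, adjusted p = 0.806) and TIMP3 (0.47, adjusted p = 0.338) did not pass either. MMP3 was called in libraries I to Z alone (-0.82, adjusted p = 0.0113) with a pseudocount of 0.1 (-1.11, adjusted p = 0.0441) and without NLS-AURKA c2 (-0.46, adjusted p = 0.0352), but it lay in the opposite direction in libraries A to H alone (0.59, adjusted p = 0.305). The median of the 6 members was 0.51 and that of all tested genes -0.02. Fold changes on this scale understate low genes such as MMP3.

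The constructs were then compared with each other, with 1 value per line and all 4 groups in 1 fit. Against NES-AURKA, NLS-AURKA had higher MMP1 (log2 fold change 3.35, SE 0.34, adjusted p = 0.000238), MMP14 (1.08, SE 0.16, adjusted p = 0.00139) and TIMP3 (1.09, SE 0.30, adjusted p = 0.0232) and lower TIMP1 (-1.43, SE 0.16, adjusted p = 0.000353), in limma with n = 2 clones of each. That is 4 of 6 members called, beside 33.2% of all genes (19.1% higher, 14.1% lower). MMP3 (0.18) and TIMP2 (0.17) did not pass. TIMP3 was not called in the libraries A to H alone (adjusted p = 0.256), with no filter on low values (0.113), or without NLS-AURKA c2 (0.0692) or c3 (0.134). Without library A of NES-AURKA c2 the 4 values were 3.76, 1.12, 0.93 and -1.41 for MMP1, MMP14, TIMP3 and TIMP1. MMP3 was also called in that setting (0.53, adjusted p = 0.0367 in limma), but it was -0.21 in libraries A to H alone. TIMP2 was 0.38 without NES-AURKA c1 and -0.04 without NES-AURKA c2.

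Against WT-AURKA, NLS-AURKA had higher MMP1 (log2 fold change 4.07, SE 0.34, adjusted p = 8.91e-05) and MMP14 (0.87, SE 0.16, adjusted p = 0.00362) and lower TIMP1 (-0.58, SE 0.16, adjusted p = 0.0203) in the same limma fit. These are 3 of 6 members, beside 36.1% of all genes (18.7% higher, 17.4% lower). TIMP3 (0.72, adjusted p = 0.0953), MMP3 (0.40, adjusted p = 0.0827) and TIMP2 (0.27, adjusted p = 0.164) did not pass. The TIMP1 call was lost in either letter set alone, with no filter and without any 1 of the 4 clones (adjusted p up to 0.147), and the MMP14 call was lost in libraries A to H alone (0.61, adjusted p = 0.213). NES-AURKA against WT-AURKA gave 1 member, TIMP1 (0.85, SE 0.16, adjusted p = 0.023), beside 4.87% of all genes (1.56% higher, 3.3% lower), and it was called in 11 of 19 settings with a value of 0.60 to 1.11. MMP1 (0.72, adjusted p = 0.245), MMP14 (-0.22), MMP3 (0.22, and -0.13 without library A), TIMP2 (0.10) and TIMP3 (-0.37) did not pass in that comparison.

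**Figure D3:**
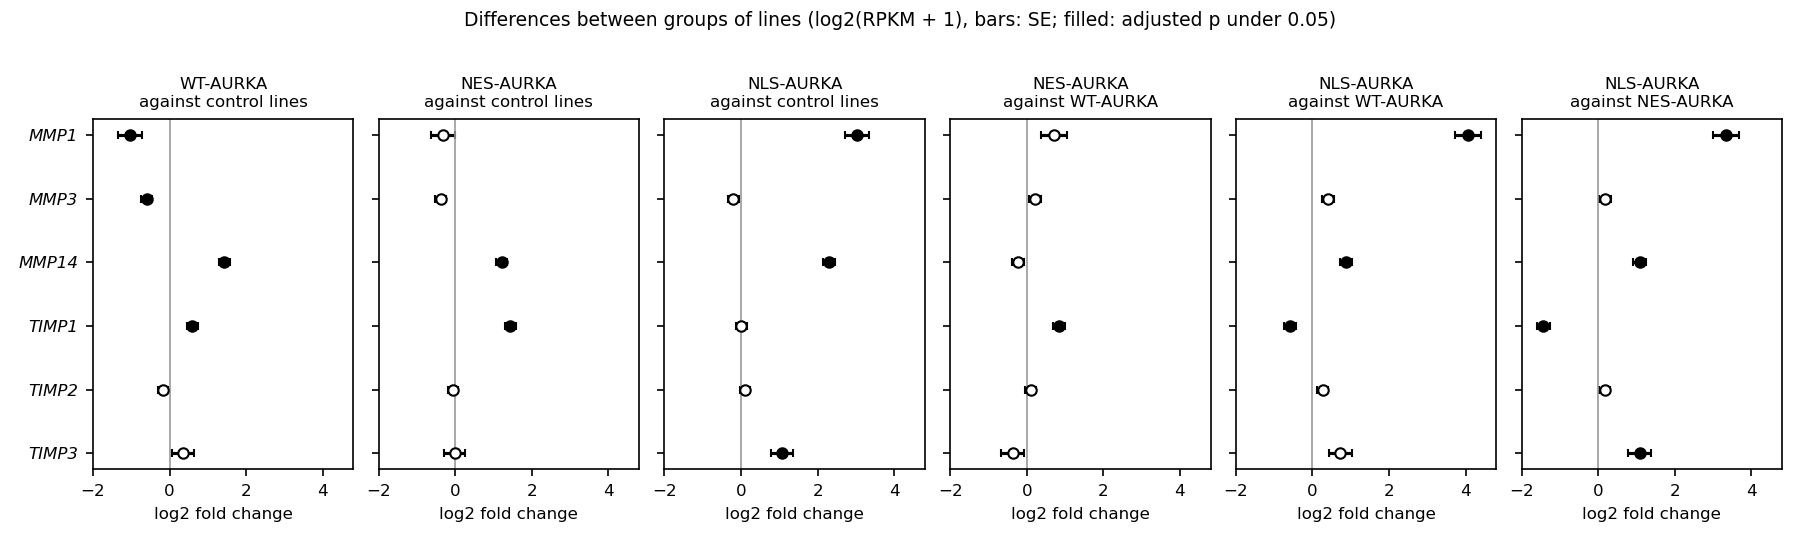
Log2 fold changes of the 6 tested genes (points) with their standard errors (bars) in 6 comparisons of groups of lines; filled points have an adjusted p under 0.05 in limma. MMP1 is 3.03 to 4.07 in the 3 comparisons that involve NLS-AURKA, and MMP14 is above 0 in all 3 comparisons with the control lines.

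Each construct was also set against the 3 control lines, a comparison added after the data were seen, and the 3 share these control lines. WT-AURKA had higher MMP14 (log2 fold change 1.43, SE 0.15, adjusted p = 0.000194) and TIMP1 (0.59, SE 0.14, adjusted p = 0.0122) and lower MMP1 (-1.03, SE 0.31, adjusted p = 0.028) and MMP3 (-0.60, SE 0.15, adjusted p = 0.0129), 4 of 6 members beside 37.2% of all genes. NES-AURKA had higher MMP14 (1.21, SE 0.15, adjusted p = 0.000596) and TIMP1 (1.44, SE 0.14, adjusted p = 0.000235), 2 of 6 beside 34% of all. NLS-AURKA had higher MMP1 (3.03, SE 0.31, adjusted p = 0.000113), MMP14 (2.30, SE 0.15, adjusted p = 1.17e-05) and TIMP3 (1.07, SE 0.28, adjusted p = 0.0133), 3 of 6 beside 41.9% of all. TIMP1 was 0.01 in NLS-AURKA (adjusted p = 0.953). The members not called were TIMP2 (-0.18) and TIMP3 (0.35) in WT-AURKA, MMP1 (-0.32), MMP3, TIMP2 (-0.07) and TIMP3 (-0.02) in NES-AURKA, and MMP3 (-0.20), TIMP1 and TIMP2 (0.10) in NLS-AURKA. The lower MMP1 of WT-AURKA was called in 10 of 19 settings, with an adjusted p of up to 0.172 without WT-AURKA c1 and 0.131 without libraries A and D. The lower MMP3 of WT-AURKA, its higher TIMP1 and the higher TIMP3 of NLS-AURKA were each called in 15 of 19, and MMP3 not in libraries A to H alone (-0.32, adjusted p = 0.679). MMP3 in NES-AURKA was -0.38 (adjusted p = 0.0791), and -0.73 (adjusted p = 0.00739) without library A. It was -1.04 (adjusted p = 0.00435) in libraries I to Z alone and 0.93 (adjusted p = 0.137), the opposite direction, in A to H alone.

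Each clone was next set against the control line with its own signal, in a limma fit to the 26 libraries in which calls were limited to log2 fold changes of 1 or more in size. MMP14 rose in WT-AURKA c1 (1.61, adjusted p = 0.000501, beside 3.53% of all genes called), WT-AURKA c2 (1.43, adjusted p = 0.00574, beside 3.19%), NES-AURKA c1 (1.38, adjusted p = 0.00171, beside 4.43%), NLS-AURKA c2 (2.39, adjusted p = 3.53e-06, beside 5.75%) and NLS-AURKA c3 (2.21, adjusted p = 9.79e-06, beside 5.13%). In NES-AURKA c2 it was 0.86 (adjusted p = 0.0558), where 2.83% of all genes were called. MMP1 rose by 3.83 in NLS-AURKA c2 (adjusted p = 2.09e-05) and by 3.57 in c3 (adjusted p = 5.28e-05). It fell by 1.74 in WT-AURKA c1 (adjusted p = 0.0318), a call lost without library D (-1.35, adjusted p = 0.158), I, J or O. In NES-AURKA c2 MMP1 was -0.73 (adjusted p = 0.49), and -1.56 without library A (adjusted p = 0.0219). The MMP14 call of WT-AURKA c2, which has 2 libraries, was lost without either of them (adjusted p = 0.0761 and 0.0652). TIMP1 rose by 1.56 in NES-AURKA c1 (adjusted p = 0.000102) and by 1.05 in c2 (adjusted p = 0.00604). The c2 call fell under the fold limit without library C (0.91), without library U (0.91) and in libraries I to Z alone (0.87). TIMP3 rose by 1.20 in NLS-AURKA c3 (adjusted p = 0.00576) and was 0.91 in c2 (adjusted p = 0.031), under the fold limit. These 11 calls were spread over 4 members, and none was for MMP3 or TIMP2.

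The effects of the constructs were then compared after the matched control line had been subtracted from each clone, also added after the data were seen. This fit was to the 26 libraries, with 1 control line per construct. Its p-values thus measure the spread between libraries and not between clones. The NLS-AURKA effect exceeded the NES-AURKA effect for MMP1 by 4.18 (SE 0.63, adjusted p = 0.000269 in limma), for TIMP3 by 1.29 (SE 0.35, adjusted p = 0.0279) and for MMP14 by 1.18 (SE 0.34, adjusted p = 0.0378), and was below it for TIMP1 (-1.20, SE 0.29, adjusted p = 0.0132), beside 3.03% of all genes called. It exceeded the WT-AURKA effect for MMP1 by 5.23 (SE 0.64, adjusted p = 3.15e-05), the only member, beside 3.66% of all. These values include differences between the control lines, and MMP1 was -1.17 in NLS-Empty against Empty. Without control lines subtracted, MMP1 was 4.07 in NLS-AURKA against WT-AURKA and 3.35 against NES-AURKA. No member differed between the NES-AURKA and WT-AURKA effects, where 0.246% of all genes were called and 2 members, TIMP1 (0.68) and TIMP3 (-0.82), had unadjusted p of 0.032 and 0.0328 in limma. The MMP14 difference was called in 18 of 31 settings, the TIMP3 difference in 26, and the TIMP1 difference and both MMP1 differences in all 31.

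Among lines of 1 kind, the only member called was TIMP3, lower in NES-AURKA c2 than in c1 (-1.11, SE 0.29, adjusted p = 0.0279, beside 1.08% of all genes). It was lost without library A, F, S, T or V, and in libraries I to Z alone the difference was -0.70. No member was called between WT-AURKA clones, between NLS-AURKA clones or for NES-Empty and NLS-Empty against Empty, where 0% to 0.0159% of all genes were called. Without adjustment limma put 1 member past the threshold there, MMP1 in NLS-Empty against Empty (-1.17).

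The sets A to H and I to Z were compared within lines with a letter-set term. MMP14 was higher in A to H (log2 difference 0.56, SE 0.06, adjusted p = 8.46e-08) in 8 of 8 lines, and TIMP2 was higher (0.64, SE 0.10, adjusted p = 1.03e-05) in 8 of 8. TIMP1 was lower (-0.28, adjusted p = 0.0131) in 7 of 8 lines and TIMP3 lower (-0.36, adjusted p = 0.0101) in 6 of 8, beside 73.2% of all genes called. Rescaling by the median ratio moved the median of all genes from -0.09 to 0.04, and TIMP1 (-0.11, adjusted p = 0.304) and TIMP3 (-0.18, adjusted p = 0.196) were then not called. MMP1 was lower in A to H in 6 of 8 lines, but 2.47 higher in NES-AURKA c2. Within each set, MMP1 was higher in both NLS-AURKA clones than in NLS-Empty, and MMP14 was higher in each clone than in its control line.

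**Figure D4:**
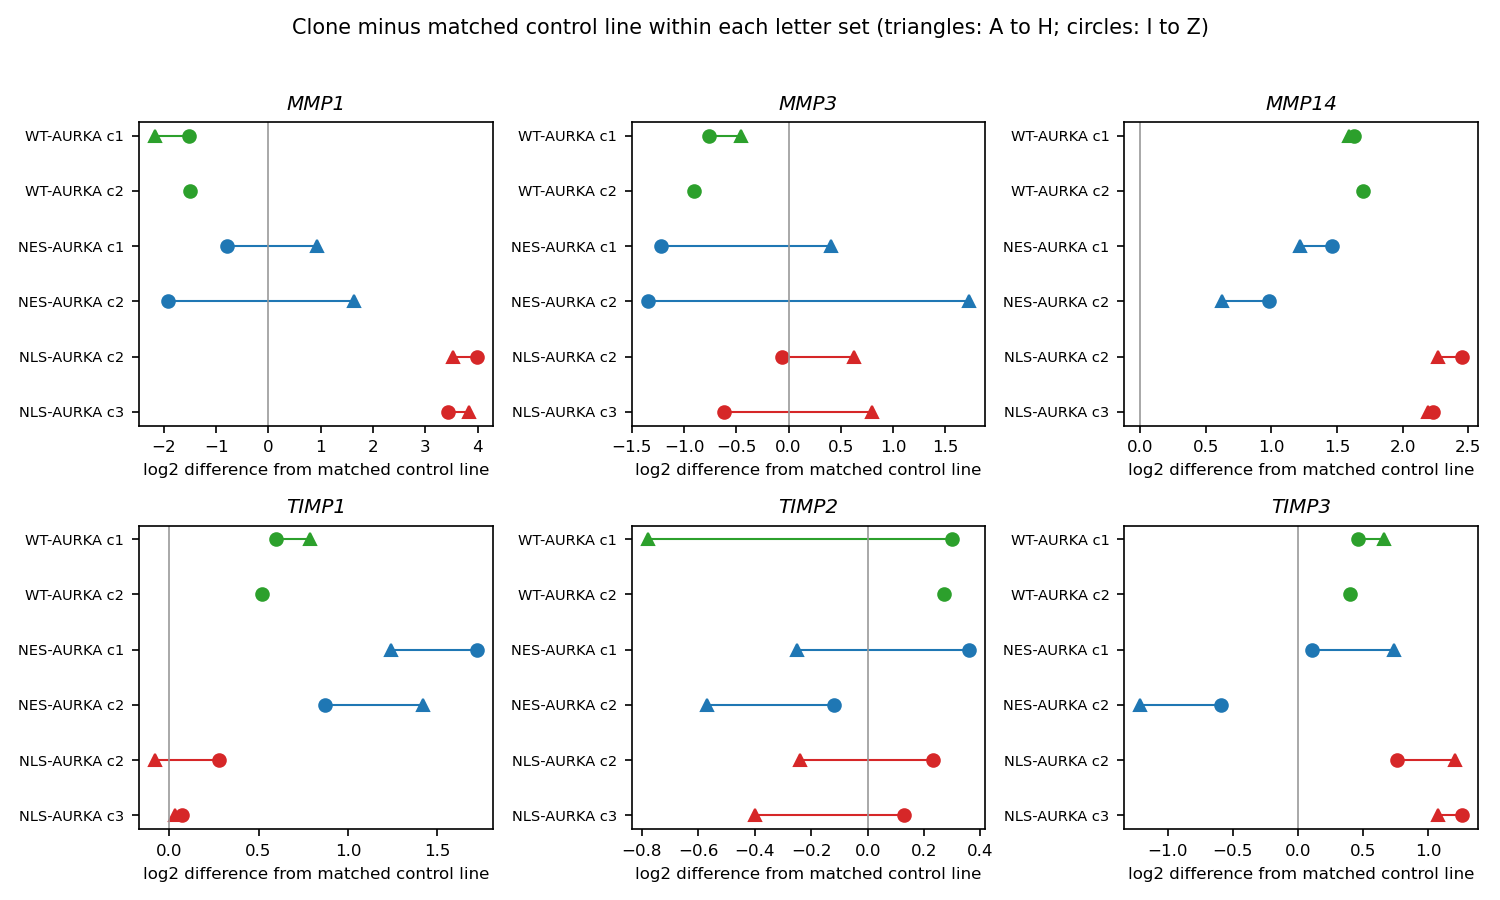
Log2 difference of each AURKA clone from its matched control line, computed within libraries A to H (triangles) and within libraries I to Z (circles), for the 6 tested genes; WT-AURKA c2 has no library in A to H. For MMP14 all points lie above 0, and for MMP1 the 2 NES-AURKA clones lie on opposite sides of 0 in the 2 sets.

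The proportion of enzymes to inhibitors was followed by line on the RPKM scale, which is per length. The sum of the 6 MMPs over the sum of the 3 TIMPs was 0.322 to 0.658 in the 7 lines other than NLS-AURKA and 2.9 and 2.16 in NLS-AURKA c2 and c3. By library it was 0.228 to 0.965 in the 7 lines and 1.81 to 4.08 in NLS-AURKA, without overlap. This gap largely restates that of MMP1, which made up 87.2% and 85.8% of the MMP sum in NLS-AURKA c2 and c3. The value of NES-AURKA c2 (0.521) rested on library A, at 0.965 beside 0.228 and 0.409 in its other libraries. MMP1 over TIMP1 was 0.58 to 2.99 in the 7 lines and 18.3 and 15.7 in NLS-AURKA, and by library 0.205 to 3.31 and 14.1 to 26.7. MMP14 over TIMP2 was 0.198 to 0.231 in controls, 0.523 to 0.731 in the WT-AURKA and NES-AURKA clones and 1.05 and 1.03 in the NLS-AURKA clones. MMP1 made up 36.4% (WT-AURKA c1) to 87.2% (NLS-AURKA c2) of the MMP sum.

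MMP1, MMP3 and MMP13 lie in a cluster of MMP genes on chromosome 11, in the RefSeq order MMP7, MMP20, MMP27, MMP8, MMP10, MMP1, MMP3, MMP12 and MMP13, and MMP27 is not analysed here. Of the cluster only MMP1 was abundant, since MMP10 reached at most 0.726 RPKM, MMP7 0.0923, MMP12 0.0755, MMP8 0.054 and MMP20 0.0242. The 8 tested of 9 listed genes beside the cluster gave 3 higher and 0 lower in NLS-AURKA against NES-AURKA (PDGFD, a platelet-derived growth factor, 1.05; DYNC2H1, a dynein motor of cilia, 0.37; DCUN1D5, 0.35), with a median of 0.31 beside 0.05 for all genes, of which 19.1% were higher and 14.1% lower. Against WT-AURKA 1 was higher (PDGFD, 0.79) and 0 lower, beside 18.7% and 17.4% of all genes. PDGFD (median 0.814 RPKM) and DYNC2H1 (median 0.735) lay near the filter and reached 1 RPKM in 10 and 8 of 26 libraries. In AURKA against control lines, where 8.85% of all genes were higher and 10.4% lower, BIRC3, an inhibitor of apoptosis, was higher (0.97) and CEP126 lower (-0.46). MMP1 and MMP3 overlap WTAPP1 in the annotation, and TIMP1, TIMP2 and TIMP3 overlap SYN1 (at most 0.126 RPKM), CEP295NL (0.704) and SYN3 (0.0257). The strand setting of the counting is not given in the sources used here, so reads of overlapping genes cannot be told apart.

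**Figure D5:**
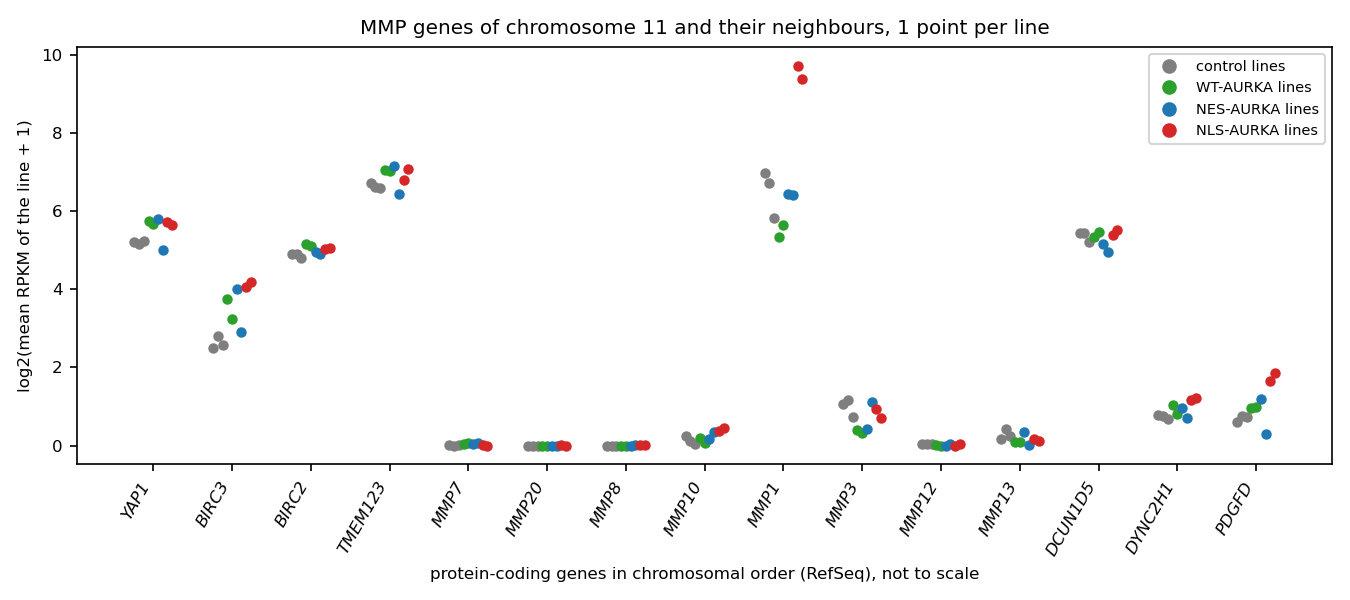
Log2 of the mean RPKM of a line plus 1 for the MMP genes of chromosome 11 and the protein-coding genes beside them, in chromosomal order but not to scale, 1 point per line coloured by construct. MMP1 is the only MMP gene of the cluster whose line means exceed 1.23 RPKM, the highest of MMP3, and its NLS-AURKA points are the highest of the plot.

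Other MMP genes were listed too. Of 17, 2 reached the filter, the membrane-type enzymes MMP15 and MMP24, and both were lower in AURKA than in control lines. MMP15 was at 4.62 to 9.36 RPKM in control libraries and at 0.841 to 2.61 in AURKA libraries (log2 fold change -1.32, SE 0.11, adjusted p = 1e-04 in limma), and MMP24 was at 0.969 to 3.16 against 0.0551 to 0.531 RPKM (-1.33, SE 0.11, adjusted p = 8.91e-05). The groups of libraries did not overlap for either, and how many of all genes separate in this way was not counted. MMP24 reached 1 RPKM in 8 libraries, all of control lines. It was thus tested only through the group where it is high, which set its direction in advance. Thus 3 membrane-type genes were called in the list and the members, MMP14 up and MMP15 and MMP24 down, where the MMP24 call adds no support. In the contrasts between constructs neither MMP15 nor MMP24 was called. TIMP4, the remaining TIMP, was lower in NLS-AURKA than in NES-AURKA (-0.47, adjusted p = 0.0265) and than in WT-AURKA (-0.85, adjusted p = 0.00159), at 0.809 RPKM against 1.61 and 2.35.

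Of 19 tested regulators and inhibitors of MMP activity, TIMP4 among them, 4 were higher and 3 lower in AURKA than in control lines, with a median of 0.32, beside 8.85% and 10.4% of all genes. TFPI2, a serine protease inhibitor of the matrix, rose by 1.50 and PLAUR, the urokinase receptor, by 0.96, and CLDN1, a tight junction protein, fell by 1.90 and PCSK6, a proprotein convertase, by 1.51. In NLS-AURKA against NES-AURKA 3 were higher and 5 lower, with a median of -0.23, beside 19.1% and 14.1% of all genes. SERPINB2, an inhibitor of plasminogen activators, fell by 2.74, SPOCK1 by 1.39 and BSG, the MMP inducer basigin, by 0.93, and PLAT, the tissue plasminogen activator, rose by 1.48. Against WT-AURKA 5 were higher and 5 lower, beside 18.7% and 17.4% of all genes, with SERPINB2 at -3.56 and BSG at -1.21. NES-AURKA against WT-AURKA, with 1.56% of all genes higher and 3.3% lower, gave 1 higher (SPOCK1, 0.89) and 1 lower (CAV1, the caveolae protein, -0.58).

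Transcription factors of the AP-1, ETS and RUNX families, which bind MMP promoters, had all 16 listed genes tested. In AURKA against control lines 6 were higher and 2 lower, with a median of 0.19, beside 8.85% and 10.4% of all genes, and ELK3 (1.45), ETV1 (1.40), ETS1 (1.04) and FOSL1 (0.72) changed most. In NLS-AURKA against NES-AURKA 3 were higher (ETS1 0.77, ELK3 0.71, RUNX1 0.52) and 1 lower (ATF3 -0.60), beside 33.2% of all genes called. Against WT-AURKA 4 were higher and 0 lower, beside 36.1% of all genes called. None was called in NES-AURKA against WT-AURKA, beside 4.87% of all genes.

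Of 16 tested substrates in matrix and cell surface, 5 were higher and 1 lower in AURKA than in control lines, beside 8.85% and 10.4% of all genes, among them FN1 (fibronectin, 1.79) and TNC (tenascin C, 1.47). In NLS-AURKA against NES-AURKA 3 were higher and 5 lower, beside 19.1% and 14.1% of all genes, with SDC1, a syndecan, at 1.31, COL8A1 at 1.28, COL6A1 at -2.46 and SDC4 at -1.12. Against WT-AURKA 5 were higher and 3 lower, beside 18.7% and 17.4% of all genes. In NES-AURKA against WT-AURKA, beside 1.56% and 3.3% of all genes, 2 were higher (TNC 0.70 and F2R, the thrombin receptor that MMP1 can cleave, 0.58) and none lower. Single markers of other cells differed in NLS-AURKA as well, the endothelial KDR and the leukocyte CD68. Of the 5 endothelial markers only KDR was tested. It passed the filter through the NLS-AURKA libraries alone, so the direction of its difference was set in advance. Of the 6 leukocyte markers 2 were tested and 1 called. Outside NLS-AURKA, 1 of the 2 was called higher in NES-AURKA than in WT-AURKA, beside 1.56% of all genes higher. In WT-AURKA against control lines 1 was called lower, beside 37.2% of all genes called. KDR was at 2.33 to 4.08 RPKM in its libraries and at 0.877 or less elsewhere, with the 5 endothelial markers summing to 2.52 to 4.58 against at most 1.55 RPKM. CD68 was at 52.1 to 70.7 RPKM against 27.2 to 53.2, and 4 of the 6 leukocyte markers were under 1 RPKM in all libraries. The other tested leukocyte marker, CD14, averaged 0.404 RPKM in NLS-AURKA, 0.618 in NES-AURKA and 0.71 in WT-AURKA, and the endothelial CDH5 was at 0.0272 RPKM or less in NLS-AURKA. The part of such cells in the MMP and TIMP levels was not tested.

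The genes whose line means followed a member most closely were taken by Pearson's r over the 9 lines, as a description in which lines of 1 construct cluster. For MMP1 they were MT1X (0.985), SART3 (0.98) and NOV (0.972), and for MMP14 FAT1 (0.991), CCDC69 (0.989) and VOPP1 (0.987). For TIMP1 they were NDUFB11 (0.97), ATF7IP (0.968) and SPANXA1 (0.957), and for TIMP3 SMYD2 (0.973), ADGRF5 (0.968) and TMCC3 (0.965). TIMP2, whose lines differed little, had RUFY1 (0.931), B4GAT1 (0.911) and SPDEF (0.898), and MMP3 had GNL3 (0.965), CD3EAP (0.96) and NOP16 (0.96).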

How the data were processed

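RNA of 9 lines was measured in 26 libraries. Per the labels' protocols, RNA came from a column kit and libraries from the KAPA mRNA Hyper Prep kit. The submitters' processing notes name HISAT2, SAMtools, Partek and build hg19. Not given in the sources used here were versions, annotation and strand setting. RPKM values, scaled by the authors to library total and transcript length, were deposited as 1 table, so count models were not used.

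Tests were made in R 4.3.3 with limma 3.58.1, with a trend in its empirical Bayes step, on log2(RPKM + 1) for genes that reached 1 RPKM in at least 2 libraries, with Benjamini-Hochberg adjustment over all 12589 genes tested. Groups of lines were compared on 1 mean per line and called at an adjusted p under 0.05. Single lines and differences of effects were compared over 26 libraries with a further limit of 1 on the absolute log2 fold change. The rule for named genes takes all 9 members, of which the 6 tested are given in each comparison of groups of lines and the called ones in those of single lines. Up to 4 genes of each list with the largest called change are named, and 3 genes with the highest Pearson r, with a mean of at least 5 RPKM, are given per tested member. TIMP4, KDR, CD68, CD14 and CDH5 were named after their values were seen. Members and lists were chosen with earlier results of these data known. The fits were tested on simulated data. Depth was estimated from the value of 1 read in 3474 genes with 1 transcript, so counting error limits genes near or under 1 RPKM. Alternatives were pseudocounts of 0.5 and 0.1, no filter, a robust step, 2 other scalings, each letter set alone, a letter-set term, and each line or library left out. Leaving out library A, or A and D, was added after seeing the data.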

Additional observations from a re-analysis of the deposited data

Results flagged for a closer look

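Differences between constructs were tested as effects against matched control lines in limma. That fit was to the 26 libraries, so it measures the spread between libraries and not between clones. The NLS-AURKA effect differed from the NES-AURKA effect for MMP1 by 4.18, MMP14 by 1.18, TIMP1 by -1.20 and TIMP3 by 1.29, and from the WT-AURKA effect for MMP1 by 5.23. Differences between the control lines are part of these values.

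Several clones moved in opposite directions from their matched control line in libraries A to H and in libraries I to Z, and these differences were not tested. Listed first are tested members for which every pair of clone and control libraries was opposite between the sets. Each A to H value sets 1 library against 1 library. MMP1 in NES-AURKA was 0.92 and -0.80 in c1 and 1.64 and -1.92 in c2, for A to H and I to Z in this order. MMP3 was 0.41 and -1.22 in NES-AURKA c1, 1.73 and -1.35 in NES-AURKA c2 and 0.80 and -0.62 in NLS-AURKA c3. TIMP1 was -0.08 and 0.28 in NLS-AURKA c2. TIMP2 was -0.78 and 0.30 in WT-AURKA c1 and -0.25 and 0.36 in NES-AURKA c1. On the means alone, TIMP2 was also opposite in NLS-AURKA c2 (-0.24 and 0.23) and c3 (-0.40 and 0.13). So was MMP3 in NLS-AURKA c2 (0.63 and -0.06).

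Some libraries lay far from the others of their group, with a gap to the nearest library that took up a large share of the range of the group. This share was 0.788 for MMP1 and 0.848 for MMP14 in library D of WT-AURKA c1, 0.633 for MMP3 in library A of NES-AURKA c2, and 0.54 for TIMP1 in library K of NES-Empty. Such gaps were found in 4 of 30 groups. Chance gives about 1 in 20 where all libraries of a group are alike, and 3 of these 4 gaps were at libraries of set A to H.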

How the results depend on the processing

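The rise of MMP14 in AURKA against control lines was called in 19 of 19 settings (log2 fold change 1.50 to 1.79), and so was that of MMP1 in NLS-AURKA against NES-AURKA (1.96 to 4.04) and against WT-AURKA (3.86 to 4.68). The number of members called moved elsewhere. AURKA against control lines gave 2 in libraries I to Z alone and with a pseudocount of 0.1, where MMP3 was added, and 1 to 2 with a line left out. NES-AURKA against WT-AURKA gave 0 in A to H alone, I to Z alone and with no filter, and 0 to 3 with a line left out. NLS-AURKA against WT-AURKA gave 1 in A to H alone and 2 to 6 with a line left out. WT-AURKA against control lines gave 2 in A to H alone, 2 in I to Z alone, 1 with no filter and 1 to 4 with a line left out. NES-AURKA against control lines gave 2 to 4 with a line left out. Between letter sets 2 remained called after rescaling by the median ratio. Among lines of 1 kind 0 to 1 were called with a library left out. Differences of effects gave 3 with no filter and 3 to 5 with a library left out. TIMP3 in NES-AURKA against control lines was -0.02, -0.58 without NES-AURKA c1 and 0.54 without NES-AURKA c2 (adjusted p = 0.0316 in limma). The cause was not tested in any of these. MMP1 in NES-AURKA c2 against NES-Empty was called without library A (-1.56, adjusted p = 0.0219). Of 3468 values for single members under alternatives, 3255 kept direction and side of the threshold. The share of higher calls among all genes in NES-AURKA against WT-AURKA went from 32.1% to 52.2% after rescaling by the median ratio. No paired analysis was possible because no label gives replicate numbers that lines share, and clone numbers name separate clones. The letter sets were entered as a term instead, under which the number of calls for single clones against their matched control line was 11, as without it. Depth limits MMP2, MMP9 and MMP13, which stayed under 1 RPKM, and MMP3, which reached it in 7 of 26 libraries.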
